A study of Mus musculus with 12 samples.

Results

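NF-kB is a family of transcription factors that is held in the cytoplasm by inhibitors and freed by signals such as tumour necrosis factor. The 10 genes described here are feedback and target genes of that family, taken from a named list (Nfkbia, Tnfaip3, Nfkb1, Nfkb2, Relb, Bcl3, Birc3, Sod2, Icam1 and Tnf) out of 21001 genes in the files. All 10 were found by Entrez number and symbol, and all 10 passed the filter on low values (at least 1 FPKM in at least 3 libraries). Icam1 and Tnf reached 1 FPKM in 6 libraries only, those of HOMING and BM, so they entered the test through the groups in which they were high. FPKM scales fragments by transcript length and by the mapped fragments of the library, so levels may be compared between genes.

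The study compared GFP-marked bone marrow stem cells (BMSCs, the labels' name) of C57BL/6 mice in 4 groups with 3 sequenced libraries each, all from mice whose genotype label reads "wide type". NC cells were in primary culture. HOMING cells were collected from the marrow of mice that received GFP-BMSCs alone under the skin. BM cells came from the marrow, and TUMOR cells from the cancer inoculation site, of mice that received GFP-BMSCs together with RFP-LLCs, Lewis lung carcinoma cells with a red fluorescent mark. No dose, time after injection, animal age or sorting gate was used here, nor do the labels tell if replicates came from different animals or cultures, so p-values measure the spread between these libraries, which may be technical.

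In resting cells the NF-kB dimer of p65 and p50 is bound by IkB proteins. An activated IkB kinase marks them for destruction, and the freed dimer switches on genes that include its own restraints, which closes a feedback loop. A slower, non-canonical arm processes the p100 product of Nfkb2 to p52, which pairs with RelB. In marrow stromal cells and fibroblasts these signals are known for inducing chemokines and adhesion molecules, and in macrophages and neutrophils for inducing Tnf itself.

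The promoter sequences are shown because the members are usually described as direct NF-kB targets. RefSeq promoter windows of GRCm38.p6, which run from 250 bases before to 50 bases after a start, were found for 8 of the 10 genes. The NF-kB consensus of 10 letters (the kappaB consensus), searched on both strands, was in the windows of 5 of these 8 genes, against 5.14% of the 27025 genes with a window. The shorter GGGNNTTTC was found in 3 of the 8 genes against 5.06% of all, and GGGNNTTCC in 3 of the 8 against 6.58%. These shorter motifs overlap the consensus, and several starts of a gene share bases. Each match is a description of letters, not a site of binding. Shown are the matches at 1 start of each gene, while 2 further stretches with a match, in the windows of other Nfkb2 starts, are not printed. The consensus is in capitals below, with up to 9 bases on either side, written along the gene's own strand.
Nfkbia, 29 to 20 bases before the start, chr12:55492658-55492685, minus strand: gactggcttGGAAATTCCCcgcgcctga
Tnfaip3, 125 to 116 bases before the start, chr10:19015517-19015544, minus strand: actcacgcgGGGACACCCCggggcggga
Tnfaip3, 12 to 3 bases before the start, chr10:19015404-19015431, minus strand: atttccatcGGAAATCCCCctgttggca
Nfkb2, overlapping matches 39 to 29 bases before the start, chr19:46304689-46304717, plus strand: gatcgtcacGGGAATTCCCCccctcgggg
Nfkb2, 11 to 2 bases before the same start, chr19:46304717-46304744, plus strand: gggccgaaaGGGGCTTTCCcggctggag
Bcl3, bases 3 to 12 from the start, chr7:19822735-19822762, minus strand: cggcggcagGGGAAGTCCCgctgcccgg
Sod2, 83 to 74 bases before the start, chr17:13007747-13007774, plus strand: ggggcggacGGGGTTCCCCgaggcgggg
The windows of Birc3, Icam1 and Tnf held no match to the consensus, which says only that these letters are not in those windows.

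Libraries held 43232145 to 46166519 expected counts, and 12314 genes were tested. Pearson's r between libraries was computed across genes, which are no independent replicates, and was 0.992 to 0.999 within groups and 0.895 to 0.968 between groups. Stromal markers were present in all groups, with a summed level of 692 to 766 FPKM in NC, 448 to 492 in HOMING, 526 to 555 in BM and 527 to 651 FPKM in TUMOR. Of the 11 stromal markers, Thy1, Nt5e and Lepr stayed under 1 FPKM in every group mean. Blood-cell markers differed widely. The 10 neutrophil markers summed to 1702 to 2488 FPKM in HOMING, 49.2 to 57.5 in BM, 1.29 to 2.71 in NC and 0.890 to 2.51 FPKM in TUMOR. The 10 monocyte and macrophage markers summed to 482 to 762 FPKM in HOMING, 70.2 to 71.4 in BM, 13.6 to 19.4 in NC and 25.1 to 25.6 FPKM in TUMOR. Of these, Adgre1 was at 0 counts in TUMOR, and the leukocyte gene Ptprc had 2 counts over the NC libraries, 5 over TUMOR, 212 over BM and 5193 over HOMING. The 7 red cell markers summed to 2107 to 3470 FPKM in HOMING and to at most 3.53 FPKM in any other library, the 8 lymphocyte markers to at most 2.82 FPKM, and the 5 endothelial markers to at most 3.12 FPKM. The 5 epithelial markers summed to 69.5 to 115 FPKM in TUMOR and to at most 6.93 FPKM elsewhere. In TUMOR this was Krt8 (mean 64.6 FPKM) and Krt19 (21.6 FPKM), while Epcam, Krt18 and Cdh1 were at 0.0067, 0.063 and 0.03 FPKM. In bulk samples fewer cells of a type and less RNA per cell cannot be told apart.

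The 10 genes had their highest group mean of FPKM in the marrow: 8 in BM and 2, Icam1 and Tnf, in HOMING. The BM and HOMING libraries of Nfkbia, Bcl3 and Birc3 overlapped. By counts Birc3 was higher in HOMING (8078 over the group) than in BM (7066). TUMOR had the lowest mean for 7 of the 10 and NC for the other 3. The most frequent order of the means, shared by 4 genes, was BM, HOMING, NC, TUMOR. The verbs rose and fell, and the word called, stand for an edgeR p under 0.05 after adjustment over the 12314 genes together with a fitted change of 2-fold or more. A test for any difference among the 4 groups passed for all 10 genes, beside 92.2% of all genes tested, so that test says little about them.

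**Figure D1:**
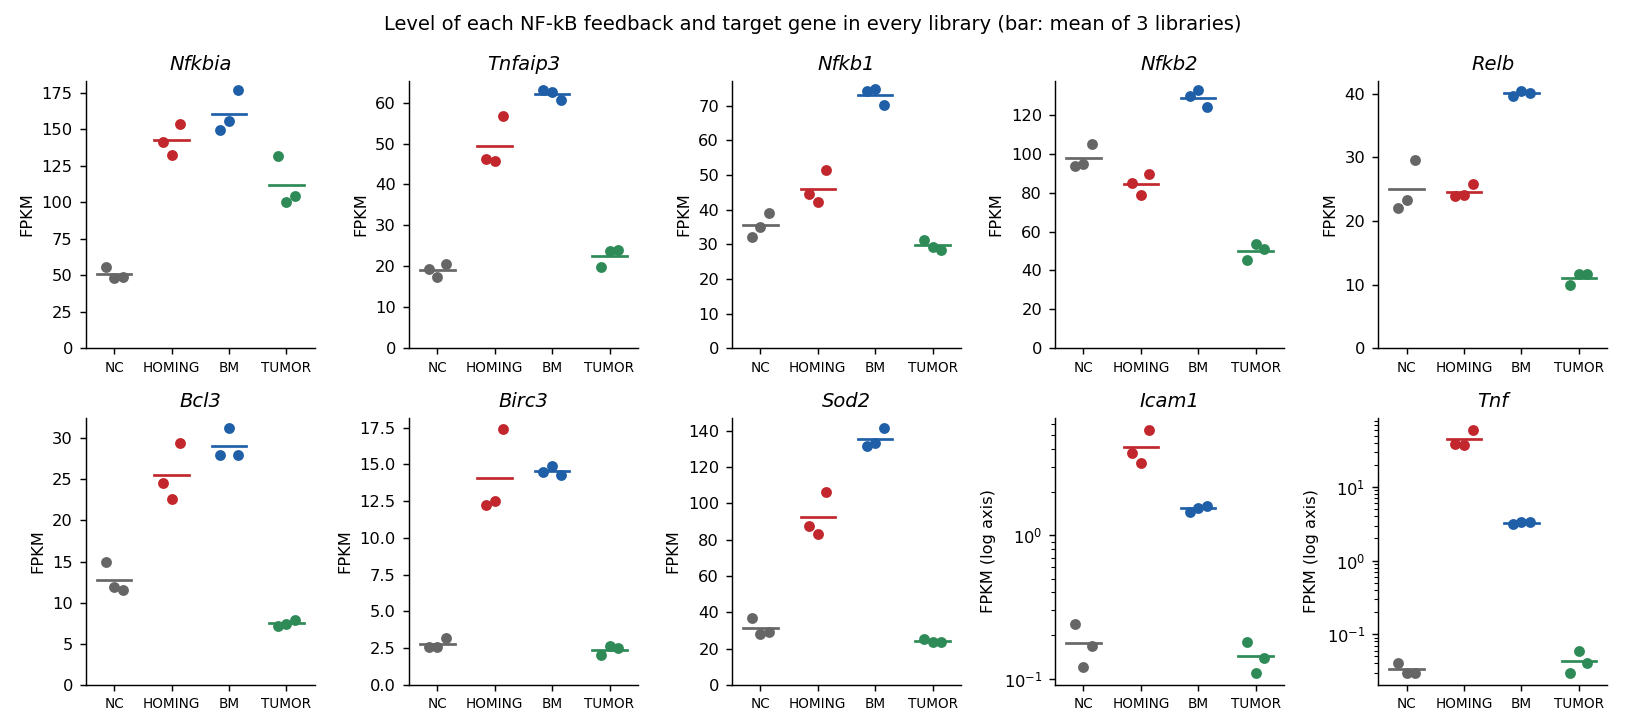
Level of each of the 10 genes in FPKM (y axis, logarithmic for Icam1 and Tnf) in every library of the 4 groups (x axis), with points for libraries and a bar for the mean of 3. The BM points lie above all NC and all TUMOR points in each of the 10 panels.

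Nfkbia encodes IkB-alpha, the inhibitor that rebinds NF-kB and carries it out of the nucleus. Its level was 55.8, 47.7 and 48.4 FPKM in the NC libraries, 142, 132 and 153 in HOMING, 150, 156 and 177 in BM, and 132, 99.8 and 104 FPKM in TUMOR. All 9 libraries of recovered cells lay above the cultured cells. Nfkbia rose over NC in HOMING (log2 1.38 ± 0.107 SE, adjusted p 1.51e-07), in BM (1.58 ± 0.108, 1.26e-07) and in TUMOR (1.02 ± 0.107, 2e-06). It was the only member called higher in TUMOR than in NC, and that call sat close to the 2-fold limit. Without TUMOR replicate 1, the highest of its group, the change was log2 0.88 and was not called, and without NC replicate 2 it was log2 0.98. BM and HOMING overlapped, and their difference was not called (log2 0.20 ± 0.105, adjusted p 0.114).

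Tnfaip3 encodes A20, a ubiquitin-editing enzyme that shuts off signalling upstream of the IkB kinase. Its level was 19.3, 17.3 and 20.6 FPKM in NC, 46.2, 45.7 and 56.7 in HOMING, 63.0, 62.6 and 60.6 in BM, and 19.8, 23.7 and 23.9 FPKM in TUMOR. The marrow groups stood apart from the other two, which overlapped each other. Tnfaip3 rose over NC in HOMING (log2 1.27 ± 0.0961, adjusted p 1.23e-07) and in BM (1.62 ± 0.0968, 4.37e-08). In TUMOR against NC the log2 change was 0.11 ± 0.0955 (adjusted p 0.307). The BM libraries lay above the HOMING libraries by less than 2-fold (log2 0.36 ± 0.094, adjusted p 0.00594).

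Nfkb1 encodes p105, which is processed to the p50 subunit and in its long form also restrains NF-kB. Its level was 32.1, 35.1 and 39.2 FPKM in NC, 44.4, 42.2 and 51.4 in HOMING, 74.3, 74.9 and 70.2 in BM, and 31.3, 29.3 and 28.4 FPKM in TUMOR. No group overlapped its neighbour in the order BM, HOMING, NC, TUMOR, yet no step between neighbours reached 2-fold. The step from HOMING to BM was log2 0.70 ± 0.0879 (adjusted p 2.31e-05). Over NC the BM level was log2 0.96 ± 0.0884 higher (adjusted p 1.36e-06), just under the 2-fold limit, and it was called at log2 1.05 without NC replicate 3 and at log2 1.04 with library-size scaling. BM exceeded TUMOR by log2 1.34 ± 0.0892 (adjusted p 5.97e-08), which was called.

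Nfkb2 encodes p100, the precursor of p52 in the non-canonical arm and an inhibitor in its unprocessed form. Its level was 93.6, 95.02 and 105 FPKM in NC, 85.2, 79.1 and 89.9 in HOMING, 130, 133 and 124 in BM, and 45.6, 53.4 and 51.2 FPKM in TUMOR. Unlike Nfkbia and Tnfaip3, it was lower in HOMING than in culture (log2 -0.32 ± 0.0707, adjusted p 0.00124), a difference under 2-fold. In TUMOR it fell against NC by 1.09 ± 0.0717 on the log2 scale (adjusted p 3.11e-08), to a level below every other library. With library-size scaling, and with limma on log2(FPKM + 0.1), that change was log2 -0.97 and was not called. BM exceeded HOMING by log2 0.63 ± 0.0709 (adjusted p 8.22e-06), again under 2-fold, and exceeded TUMOR by log2 1.402 ± 0.0721 (adjusted p 6.51e-09). Of the listed transcripts of Nfkb2, the shortest, at 3054 bases, took 61.6% of the gene's counts in TUMOR, 63.7% in NC, 65.8% in HOMING and 71.0% in BM.

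Relb encodes RelB, the partner of p52 and p100. Its level was 22.0, 23.3 and 29.5 FPKM in NC, 23.9, 24.0 and 25.8 in HOMING, 39.7, 40.5 and 40.2 in BM, and 9.88, 11.7 and 11.7 FPKM in TUMOR. NC and HOMING overlapped (log2 -0.13 ± 0.101, adjusted p 0.247), BM was above them and TUMOR below them. Relb fell in TUMOR against NC by 1.29 ± 0.104 on the log2 scale (adjusted p 1.91e-07) and against HOMING by 1.16 ± 0.104 (adjusted p 1.2e-06), a change of log2 -0.99 and not called on the top transcript alone. BM exceeded HOMING by log2 0.74 ± 0.1 (adjusted p 4.64e-05) and NC by 0.60 ± 0.1 (0.000186), both under 2-fold. Across the 12 libraries Relb and Nfkb2 had a Pearson r of 0.985 on log2(FPKM + 1), while Nfkbia and Nfkb2 had 0.054. These values describe 12 libraries that fall into 4 groups, so they rest largely on the group means.

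Bcl3 encodes an atypical IkB protein that works in the nucleus with p50 and p52 dimers. Its level was 14.99, 11.9 and 11.5 FPKM in NC, 24.5, 22.6 and 29.5 in HOMING, 28.0, 31.3 and 28.0 in BM, and 7.14, 7.43 and 7.91 FPKM in TUMOR. The marrow groups overlapped each other and lay above NC, and TUMOR lay below NC. Bcl3 rose in BM against NC (log2 1.10 ± 0.106, adjusted p 2.01e-06) and stayed short of 2-fold in HOMING against NC (0.88 ± 0.106, 8.26e-06). Without NC replicate 1 the HOMING change was log2 1.00 and was called. TUMOR was lower than NC by less than 2-fold (log2 -0.90 ± 0.111, adjusted p 9.85e-06), and BM exceeded TUMOR by log2 1.999 ± 0.111 (adjusted p 1.24e-08).

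Birc3 encodes cIAP2, a ubiquitin ligase that protects cells from death signals of the TNF receptor. Its level was 2.57, 2.54 and 3.16 FPKM in NC, 12.2, 12.51 and 17.4 in HOMING, 14.5, 14.9 and 14.3 in BM, and 2.0, 2.67 and 2.52 FPKM in TUMOR. The libraries formed a high pair of groups, HOMING and BM, and a low pair, NC and TUMOR, with overlap inside each pair. Birc3 rose over NC by log2 2.47 ± 0.142 in HOMING (adjusted p 9.37e-09) and by 2.28 ± 0.141 in BM (5.8e-08), and TUMOR against NC was log2 -0.20 ± 0.149 (adjusted p 0.241). Its counts were split between a RefSeq transcript of 2820 bases and a transcript of 10610 bases that has no RefSeq accession. The longer one took 49.4% of the gene's counts in HOMING and 31.7% in BM. The sign of BM against HOMING differed between measures, from log2 -0.19 ± 0.128 on summed counts to 0.24 on the RefSeq transcript alone, and it was called on neither. Its paralog Birc2 may share reads with it.

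Sod2 encodes the manganese superoxide dismutase of mitochondria, a protective NF-kB target. Its level was 36.6, 28.1 and 29.3 FPKM in NC, 87.7, 83.1 and 106 in HOMING, 132, 133 and 141 in BM, and 25.2, 23.6 and 23.8 FPKM in TUMOR. No pair of groups overlapped. Sod2 rose over NC by log2 1.45 ± 0.1 in HOMING (adjusted p 5.21e-08) and by 2.03 ± 0.102 in BM (1.33e-08). BM exceeded HOMING by log2 0.58 ± 0.0982 (adjusted p 0.000266), under 2-fold. BM stood above TUMOR by log2 2.53 ± 0.104, with the smallest adjusted p of any member in that comparison (1.26e-09).

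Icam1 encodes the adhesion molecule that leukocyte integrins bind. It was low in every group: 0.24, 0.12 and 0.170 FPKM in NC, 3.74, 3.19 and 5.46 in HOMING, 1.46, 1.56 and 1.61 in BM, and 0.180, 0.110 and 0.140 FPKM in TUMOR. The NC and TUMOR libraries held 59 and 46 counts in all, HOMING 1355 and BM 514. Icam1 rose over NC in HOMING (log2 4.45 ± 0.263, adjusted p 1.2e-08) and in BM (3.06 ± 0.267, 8.76e-07), and fell from HOMING to BM by 1.39 ± 0.207 on the log2 scale (adjusted p 9.66e-05). On log2(FPKM + 1), a scale that understates changes of low genes, limma gave that fall as -0.99, so it was not called there.

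Tnf encodes tumour necrosis factor, both a target and an activator of NF-kB. It was at 0.040, 0.030 and 0.030 FPKM in NC, 38.0, 37.2 and 59.9 in HOMING, 3.18, 3.32 and 3.37 in BM, and 0.030, 0.060 and 0.040 FPKM in TUMOR. The groups NC and TUMOR held 7 and 9 counts over 3 libraries each, against 9450 in HOMING and 701 in BM. Scaled by library totals, the HOMING counts were 1399 times those of NC (95% exact interval 679 to 3481) and the BM counts 102 times (49.3 to 255). These intervals cover counting error only. All Tnf counts of NC were on a transcript of 1605 bases, and all of HOMING and BM on another of 1653 bases. Of the TUMOR counts 66.7% were on the shorter and 33.3% on the longer. The cause of this split was not tested. BM lay below HOMING by log2 -3.75 ± 0.166 (adjusted p 3.46e-09), and TUMOR against NC was not called (adjusted p 0.802).

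**Figure D2:**
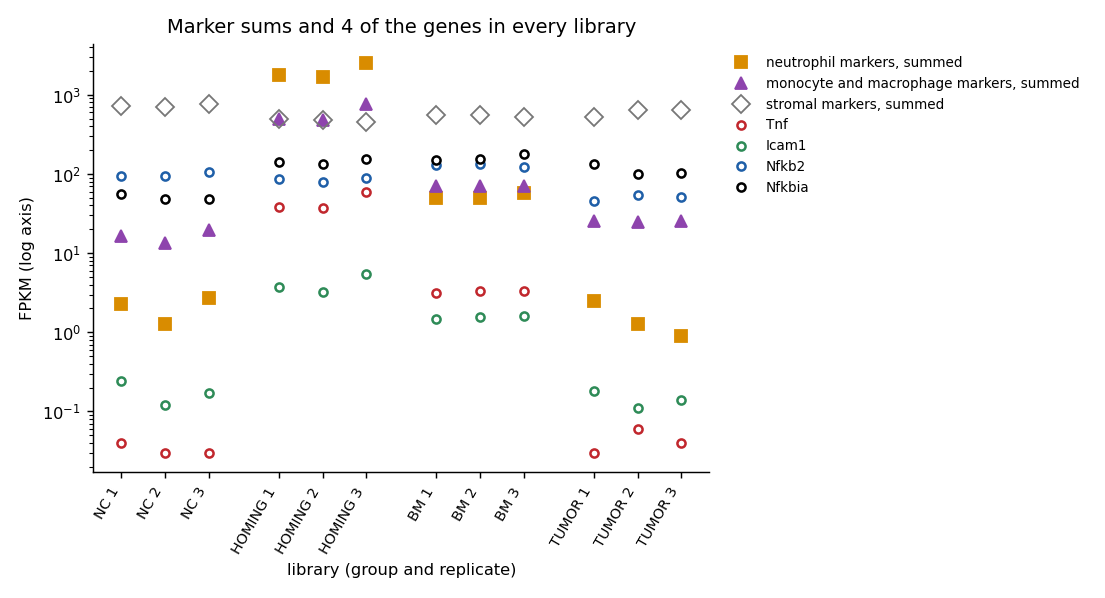
Summed FPKM of the neutrophil, monocyte and macrophage, and stromal markers, with the FPKM of Tnf, Icam1, Nfkb2 and Nfkbia, in each of the 12 libraries (logarithmic y axis). Tnf, Icam1 and the neutrophil marker sum are highest in HOMING, intermediate in BM and lowest in NC and TUMOR, while Nfkb2 is highest in BM.

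Like Tnf and Icam1, the neutrophil and the monocyte and macrophage marker sums were highest in HOMING and next highest in BM. The sizes of the falls differed, and the red cell sum was 806 times as high in HOMING as in BM. From HOMING to BM the mean summed level fell 38.2-fold for the neutrophil markers, with 9 of 10 called lower and the other not tested. For the monocyte and macrophage markers it fell 8.17-fold, with 9 of 10 called lower. Of all genes 6.68% were called lower there. Tnfaip3, Nfkb1, Nfkb2, Relb and Sod2 were higher in BM than in HOMING by less than 2-fold at the adjusted p alone and were not called. Against NC the BM sums were 24.8 and 4.29 times as high. Called higher were 7 of the 9 neutrophil markers tested and 9 of the 10 others, beside 7.93% of all genes. In TUMOR against NC 0 of the 9 neutrophil markers tested were called higher and 1 lower. Of the 10 monocyte and macrophage markers 2 were called higher. Of all genes 9.75% were called higher and 6.65% lower there, so these counts lie near those shares. HOMING replicate 3 had the highest sums of both marker lists and the highest HOMING level of all 10 members, while 37.3% of all tested genes were highest in that library. Without it Tnf was log2 -3.49 and Icam1 -1.14 in BM against HOMING, and the same number of members was called. The part of blood cells in the members' levels was not tested.

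In marrow of tumour-bearing against tumour-free mice (BM against HOMING) 0 of the 10 members rose and 2, Icam1 and Tnf, fell, beside 3.71% of all genes called higher and 6.68% called lower (10.4% in all). The other 8 were within 2-fold. At the adjusted p alone 5 of the 10 were higher in BM (Tnfaip3, Nfkb1, Nfkb2, Relb and Sod2), and 2 lower, beside 29.3% and 28.8% of all genes (58.1% in all). The libraries of 7 members did not overlap, beside 72.3% of all genes. The median log2 change of the members was 0.287, against -0.00467 over all genes tested.

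Against cultured cells the marrow groups differed upward. In HOMING 6 of 10 members rose and 0 fell, beside 9.64% of all genes called higher and 4.69% lower, with a median log2 change of 1.32 against 0.00962. All genes called came to 14.3%. At the adjusted p alone 8 members were higher and 1, Nfkb2, lower, beside 35.4% and 34.6% of all genes (70% in all), and 9 did not overlap, beside 72.6%. The 6 called were Nfkbia, Tnfaip3, Birc3, Sod2, Icam1 and Tnf. In BM 7 of 10 rose and 0 fell, beside 7.93% of all genes higher and 3.57% lower, with a median of 1.60 against 0.0157. All genes called came to 11.5%. At the adjusted p alone all 10 were higher and 0 lower, beside 34.4% and 32.2% of all genes (66.6% in all), and all 10 did not overlap, beside 69.6%. The 7 called were those 6 and Bcl3. These comparisons share the NC libraries. The fit was repeated on the 11083 genes that reached 1 FPKM on average in culture, which leaves out Icam1 and Tnf. Of the other 8 members 4 were called in HOMING against NC beside 9.01% of those genes, and 6 in BM against NC beside 6.81%. In that fit 7 of the 8 were called in BM against TUMOR beside 9.26%, 5 in TUMOR against HOMING beside 4.89%, 3 in TUMOR against NC beside 13.1%, and 0 in BM against HOMING beside 4.89%.

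At the inoculation site fewer members were called higher than culture than in either marrow group. In TUMOR against NC 1 member, Nfkbia, rose and 2, Nfkb2 and Relb, fell, beside 9.75% of all genes called higher and 6.65% lower (16.4% in all), and the median was log2 -0.39 against 0.00900 over all genes. This count of 3 was 2 without TUMOR replicate 1 or without NC replicate 2. It was also 2 with library-size scaling, without the FPKM filter, and with limma on log2(FPKM + 1) or log2(FPKM + 0.1). At the adjusted p alone 1 member was higher and 5 were lower, beside 37.2% and 36.5% of all genes (73.6% in all), and 6 did not overlap, beside 72.8%, so these counts lie near the background. Of the 5 lower, Nfkb1, Bcl3 and Sod2 were within 2-fold. Beside these values 2 of the 5 epithelial markers, Krt8 and Krt19, rose in TUMOR, while Epcam, Krt18 and Cdh1 were too low to be tested. The part of other cell types in the members' levels there was not tested.

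The most members were called between the 2 sites of mice that carried tumours. In BM against TUMOR 9 of 10 members rose, all except Nfkbia, and 0 fell, beside 7.28% of all genes called higher and 6.95% lower (14.2% in all). At the adjusted p alone all 10 were higher and 0 lower, beside 34.2% and 35.4% (69.6% in all), and all 10 did not overlap, beside 75.9%. The median log2 change was 1.95, against -0.00982 over all genes. The range among called members ran from log2 1.34 for Nfkb1 to 6.22 for Tnf, and Nfkbia was higher by log2 0.56 ± 0.105 (adjusted p 0.000405). In TUMOR against HOMING 7 of 10 fell and 0 rose, beside 6.37% of all genes called lower and 4.42% higher (10.8% in all), with a median of log2 -1.47 against 0.00257. At the adjusted p alone all 10 were lower and 0 higher, beside 27.2% and 27.9% (55% in all), and all 10 did not overlap, beside 66.9%. The 3 not called were Nfkbia, Nfkb1 and Nfkb2.

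**Figure D3:**
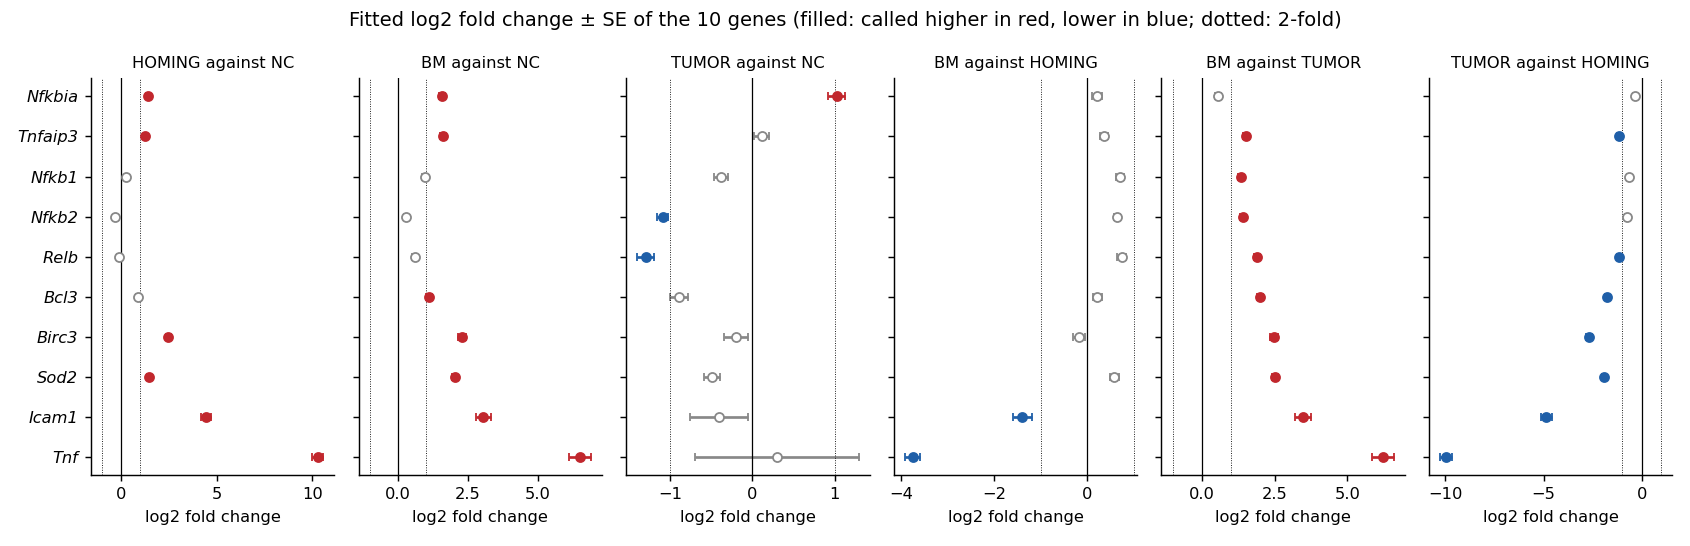
Fitted log2 fold change (x axis, one scale per panel) of each gene in the 6 comparisons, with the edgeR standard error. Filled points are called, red for higher and blue for lower in the group named first, and dotted lines mark 2-fold: 9 of 10 points are red in BM against TUMOR and 1 in TUMOR against NC.

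The other factors and IkB proteins of the family shared the order of the subunit members in part. Rela, which encodes p65, had mean levels of 76.0 FPKM in NC, 89.4 in HOMING, 124 in BM and 77.5 in TUMOR, and was called in no comparison. Of the 6 genes, 0 were called in BM or in TUMOR against NC (2 in BM with library-size scaling), beside 11.5% and 16.4% of all genes. In BM against TUMOR 3 rose, beside 7.28% of all genes called higher. These were Nfkbie (IkB-epsilon), from 4.39 to 14.8 FPKM (log2 1.80 ± 0.115), Rel (the subunit c-Rel), from 3.25 to 9.14 FPKM (1.53 ± 0.107), and Nfkbib (IkB-beta), from 29.3 to 67.0 FPKM (1.24 ± 0.0724). Nfkbid, which encodes the nuclear protein IkBNS, had another pattern: it was 5.29 FPKM in HOMING and 0.427 to 0.543 FPKM in the other groups, rose in HOMING against NC (log2 3.39 ± 0.212) and fell in BM against HOMING (-3.61 ± 0.215).

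Of 23 kinases, adaptors and ubiquitin ligases, 1 rose in HOMING, 2 in BM and 1 in TUMOR against NC, and 0 fell in these comparisons, beside 9.64%, 7.93% and 9.75% of all genes called higher. Ikbke, an IkB kinase relative that leukocytes express strongly, accounts for 1 in each: it was 0.690 FPKM in NC, 22.8 in HOMING, 4.03 in BM and 2.04 FPKM in TUMOR. Birc2 (cIAP1) was the other in BM, at log2 1.08 ± 0.0878. In BM against TUMOR 2 of 23 rose (1 with library-size scaling), beside 7.28% of all genes called higher. They were Traf2, which recruits the cIAP proteins (log2 1.10 ± 0.0414), and Ikbke (1.02 ± 0.187).

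Of 16 listed receptors and ligands, 13 were tested, and Tnfrsf11a, Lta and Tnfsf11 were too low. Against NC 8 rose in HOMING, 6 in BM and 2 in TUMOR (3 with library-size scaling), and in TUMOR 2 fell. Of all genes 9.64%, 7.93% and 9.75% were called higher in these comparisons, and 6.65% lower in TUMOR. The interleukin 1 genes led in the marrow: Il1b rose over NC by log2 9.95 ± 0.295 in HOMING and 7.10 ± 0.333 in BM, from 14 counts over the NC libraries, and Il1a rose by 6.37 ± 0.236 and 4.92 ± 0.238. Il1r1, the signalling receptor for interleukin 1, rose in TUMOR against NC, from 2.34 to 9.29 FPKM (log2 1.87 ± 0.168), where Il1b had 5 counts over the group. In BM against HOMING 2 of the 13 rose and 7 fell, with Ltb (log2 -4.72 ± 0.320), Il1b (-2.85 ± 0.161), Il1rn, the receptor antagonist (-2.58 ± 0.179), and the TNF receptor gene Tnfrsf1b (-1.70 ± 0.148) the largest falls. In the main fit 3.71% of all genes rose and 6.68% fell in BM against HOMING. With library-size scaling 1 of the 13 rose there.

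Of 7 further restraints, 2 rose in HOMING (3 with library-size scaling) and 2 in BM against NC, beside 9.64% and 7.93% of all genes called higher. Tnip1, whose product works with A20, was 8.64 FPKM in NC, 36.4 in HOMING, 26.6 in BM and 14.7 FPKM in TUMOR, and rose in HOMING (log2 1.93 ± 0.153) and BM (1.52 ± 0.153) against NC. Irak3, an inhibitor of Toll-like receptor signalling best known in monocytes, was 0.593, 27.0, 2.40 and 0.293 FPKM in the same order and fell in BM against HOMING (log2 -3.46 ± 0.183). In TUMOR against NC 1 of the 7 fell, Irak3 (log2 -1.13 ± 0.307), beside 6.65% of all genes called lower. Both of its means there were under the 1 FPKM set for naming genes, and the part of monocytes in its level was not tested.

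**Figure D4:**
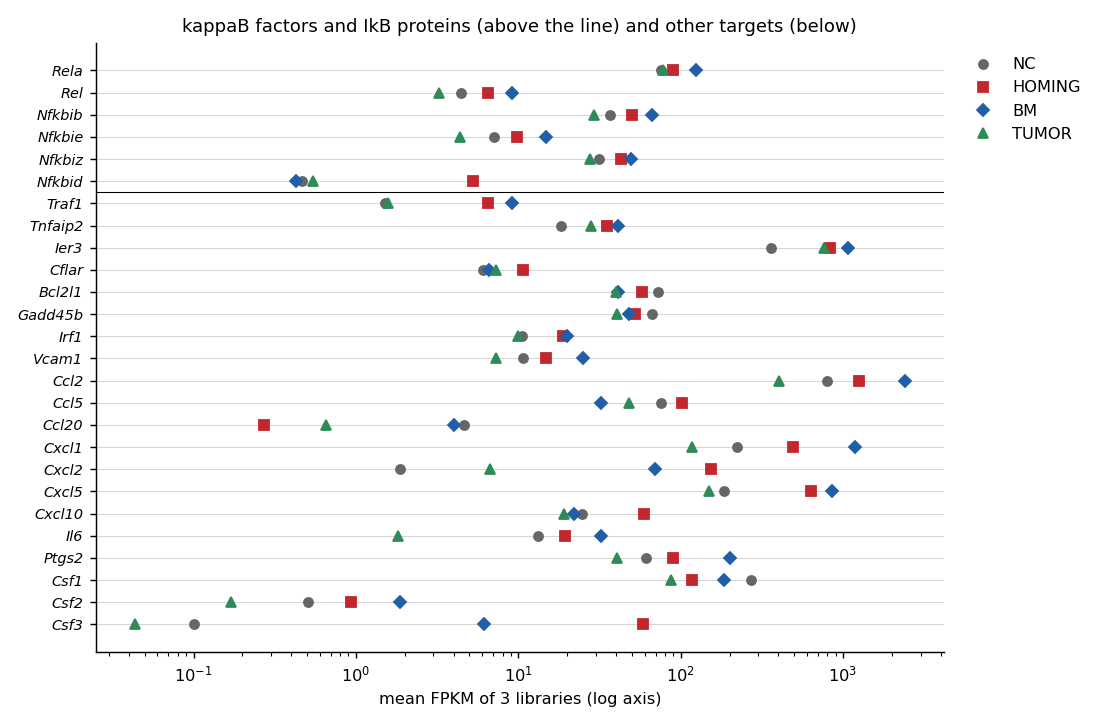
Mean FPKM of 3 libraries (logarithmic x axis) for 6 further kappaB factors and IkB proteins and 20 other targets in the 4 groups. Among the other targets, Traf1, Ccl2, Cxcl1, Cxcl5, Il6 and Ptgs2 have their highest mean in BM, and Csf3 and Cxcl2 in HOMING. Those with their highest mean in NC are Csf1, Bcl2l1, Gadd45b and Ccl20.

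Other targets of the family were a list of 20 genes, all tested, that was chosen with earlier results of these data known. Against NC 12 rose and 1 fell in BM (median log2 1.21), 8 rose and 2 fell in HOMING (0.627), and 1 rose and 6 fell in TUMOR (-0.754). In the same order 7.93%, 9.64% and 9.75% of all genes were called higher, and 3.57%, 4.69% and 6.65% lower. With library-size scaling, which moved the median of all genes by 0.124 in TUMOR against NC and 0.113 in HOMING against NC, 2 rose and 4 fell in TUMOR. In BM against NC the largest changes were in Csf3, the granulocyte growth factor (log2 5.80 ± 0.343, from 18 counts over NC), the neutrophil chemokine Cxcl2 (5.13 ± 0.228), the adaptor Traf1 (2.51 ± 0.171) and the neutrophil chemokine Cxcl1 (2.35 ± 0.150). In TUMOR against NC the cytokine gene Il6 fell from 13.3 ± 2.80 to 1.81 ± 0.140 FPKM (mean ± SD, n = 3, log2 -3.00 ± 0.188 SE) and the chemokine gene Ccl20 fell likewise (log2 -2.94 ± 0.398). Csf1, the macrophage growth factor, fell (log2 -1.75 ± 0.0819), whereas Cxcl2 rose by 1.72 ± 0.253.

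In BM against TUMOR 13 of the 20 targets rose (12 with library-size scaling) and 0 fell (median log2 2.09), beside 7.28% of all genes called higher and 6.95% lower. The rises were led by Csf3 (7.17 ± 0.401, with 7 counts over TUMOR), Il6 (4.21 ± 0.186), the myeloid growth factor gene Csf2 (3.496 ± 0.537) and Cxcl2 (3.41 ± 0.195). In BM against HOMING 4 rose and 4 fell, beside 3.71% of all genes called higher and 6.68% lower. Ccl20 rose (log2 3.89 ± 0.457), and Csf3 (-3.23 ± 0.176), the T cell chemokine gene Ccl5 (-1.63 ± 0.103) and the interferon-induced Cxcl10 (-1.40 ± 0.110) fell. Other scalings gave 3 risers and 4 fallers there.

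The genes most like each member across the 12 libraries, by Pearson r of log2(FPKM + 1), were taken with their r as a description. For Tnfaip3 they were Traf1 (0.991) and Penk (0.990), and for Nfkbia Ptges (0.985) is given. Nfkb1 was nearest to Gdf15 (0.993) and Mafg (0.989), Nfkb2 to Rnd1 (0.993) and Slc39a14 (0.992), and Relb to Rab11fip1 (0.994) and Abcb1b (0.994). Bcl3 was nearest to Cfb (0.990) and Gbp2b (0.988), Birc3 to Cxcl16 (0.997) and Tnip3 (0.995), and Sod2 to Ppm1h (0.995) and Sbno2 (0.994). Icam1 was nearest to Mreg (0.997) and Slpi (0.996). For Tnf they were the myeloid lectin gene Clec4n (1.00), at 30.6 FPKM in HOMING and 2.54 in BM, and F10 (1.00), which encodes coagulation factor X.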

How the data were processed

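RNA of sorted GFP-BMSCs was sequenced with the Illumina TruSeq preparation, per the labels' protocols. Reads were mapped with Bowtie 0.12.2 to mm8, per the submitters' processing notes, with a counting program not given in the sources used here. Per the file headers, each table gives expected counts (estimated counts per transcript, not normalized) and FPKM made by the authors. Transcripts not listed were set to 0 and both columns were summed per gene. Of 19679 Entrez numbers, 19629 matched a RefSeq symbol. Promoter windows are of GRCm38.p6, another build than mm8.

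Rounded counts were scaled by TMM (factors 0.929 to 1.04) and tested with edgeR's quasi-likelihood F-test (edgeR 4.0.16, R 4.3.3) in 1 model of all libraries without a replicate block, two-sided, adjusted by Benjamini and Hochberg. SEs are the log2 change divided by the square root of F. The script was tested on simulated data. Pairs of libraries within a group differed by more than sampling noise. DESeq2 1.42.0 and limma 3.58.1 were among the alternatives.

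Members and lists were chosen with earlier results of these data known. Named are the 10 members, of each list at most 4 called genes per comparison by size of change (mean of 1 FPKM or more on the higher side), and the 2 most alike genes per member. One of these is not reported here. Rela, Ptprc, Ccl2, Cxcl5, Ptgs2, Bcl2l1 and Gadd45b were named after their values were seen.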

Additional observations from a re-analysis of the deposited data

How the results depend on the processing

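The number of members called was within 1.5 times its value in 98 of 102 alternative results and the number of all genes called in 82 of 102. These include the main fit read with no minimum fold change, which is not a refit. A change from 3 members to 2, as in TUMOR against NC, counts as within that limit. With no minimum fold change 7 members were called in BM against HOMING (2 with it) and 6 in TUMOR against NC (3), and 7158, 8198, 8576, 8617, 6776 and 9068 genes were called in BM against HOMING, BM against NC, BM against TUMOR, HOMING against NC, TUMOR against HOMING and TUMOR against NC. Without the FPKM filter these were 2581, 2537, 3162, 3302, 2702 and 3420, beside 1280, 1416, 1752, 1765, 1329 and 2019. Over genes expressed in NC 0 members were called in BM against HOMING, since Icam1 and Tnf are left out, and the first 5 counts of genes were 542, 755, 1026, 999 and 542. Limma on log2(FPKM + 1) called 1 member in BM against HOMING, and 626, 930 and 1301 genes in BM against NC, BM against TUMOR and TUMOR against NC. Birc3 in BM against HOMING changed sign to log2 0.24 on the top transcript and to 0.072 and 0.067 with limma at pseudocounts of 0.1 and 1, and Relb in HOMING against NC to 0.020 without NC replicate 3 (range -0.229 to 0.020 over the libraries left out), none of them called. The cause was not tested, other than the split of Birc3 counts between transcripts. Leaving out 1 library gave 2 members in BM against HOMING, 7 to 8 in BM against NC, 9 in BM against TUMOR, 6 to 7 in HOMING against NC, 7 in TUMOR against HOMING and 2 to 3 in TUMOR against NC. With library-size scaling 69.7% of the genes called in TUMOR against NC were higher. Replicate numbers are shared between groups, and the deviations of same-numbered libraries from their group means had r of -0.120 to 0.224. In HOMING against NC these were 0.005, 0.224 and 0.055, against -0.141 to 0.033 for other pairs of libraries. With 3 libraries a group these values cannot settle if the numbers mark pairs. With the replicate number as a block 2, 7, 9, 6, 7 and 3 members were called in the 6 comparisons in that order, and no call of a member changed. Depth limits Tnf and Icam1 in NC and TUMOR.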
